A study of Mus musculus with 8 samples.

Results

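The genes described are those of the granule exocytosis machinery, chosen by name as every row of the count table whose symbol starts like a synaptotagmin, synaptotagmin-like protein, syntaxin, syntaxin-binding protein, VAMP, SNAP, complexin, RIM, Munc13, Rab3 or Rab27 gene. The rule takes 74 of 24091 genes, and no measured value entered it. Of the 74 members, 67 passed the filter on low counts and were tested among 15233 genes. Snap91 came in by its name only, since it encodes a clathrin assembly protein, and Stxbp3-ps is a pseudogene.

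Islets were compared between mutant mice, labelled Ngn3-Cre, itgb1-/- and called Itgb1ΔEndo/ΔEndo, and control mice labelled wild-type, all on a C57BL/6 background and 6 weeks old, with 4 libraries each. The deletion is made by a Cre transgene under the promoter of Ngn3, a gene of endocrine progenitors, so endocrine cells lose the integrin β1 subunit and islet cells of other lineages keep it. The study notes that Ngn3 is also active in brain and gut. Whether the controls carried Cre is not stated, and each RNA preparation used 10 to 30 islets of mixed cell types. The question put to these genes was whether islets without endocrine Itgb1 hold different levels of the transcripts that release insulin and other hormones.

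Hormone granules are docked at the plasma membrane by Rab27 and Rab3 and their effectors, among them the synaptotagmin-like proteins. Syntaxin-binding, Munc13 and RIM proteins then prime them, and a SNARE complex of a syntaxin, SNAP-25 and a VAMP drives fusion when a synaptotagmin binds calcium. Complexins and tomosyns hold the complex back or help it along.

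Sequence from just upstream of the start site is shown for 4 members that are referred to below, 2 synaptotagmin-like genes and a tomosyn that were lower in the mutant libraries and the Munc13 gene that was higher in most of them. The sequences are 120 bases long, end at the base before the RefSeq start, run 5′ to 3′ and follow build GRCm38.p6. Sytl4 (granuphilin) is shown from chrX:133981813-133981932 on the minus strand, Sytl5 from chrX:9885501-9885620 on the plus strand, Stxbp5l (tomosyn-2) from chr16:37384959-37385078 on the minus strand and Unc13a (Munc13-1) from chr8:71671758-71671877 on the minus strand. Capitals mark matches on either strand to an E-box (CANNTG), a cyclic AMP response element (TGACGTCA), the core of a hypoxia response element (ACGTG) or a GC box (GGGCGG).
Sytl4: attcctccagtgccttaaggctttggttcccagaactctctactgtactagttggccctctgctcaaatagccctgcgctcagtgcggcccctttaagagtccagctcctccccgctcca
Sytl5: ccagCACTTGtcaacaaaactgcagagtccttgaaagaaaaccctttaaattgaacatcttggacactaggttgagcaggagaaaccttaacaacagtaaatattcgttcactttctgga
Stxbp5l: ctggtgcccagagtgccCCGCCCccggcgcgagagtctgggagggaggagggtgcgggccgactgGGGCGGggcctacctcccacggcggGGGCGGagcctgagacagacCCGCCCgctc
Unc13a: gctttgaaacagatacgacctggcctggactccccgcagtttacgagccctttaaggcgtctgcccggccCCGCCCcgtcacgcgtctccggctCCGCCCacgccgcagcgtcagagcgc

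These 4 stretches have little in common. Sytl5 holds 1 E-box, Stxbp5l 4 GC boxes and Unc13a 2 GC boxes, while Sytl4 holds no match to any of the 4 motifs in this window. Of 52 tested members with a sequence in the table, 61.5% held a GC box, 46.2% an E-box, 11.5% the hypoxia core and 1.92% the cyclic AMP element. The shares over all 27018 promoters of that length were 26.9%, 40.0%, 9.36% and 1.31%, and over the 11633 promoters of tested genes 49.1%, 32.1%, 12.2% and 2.30%. A match describes the letters and is not a bound site.

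The libraries held 35.1 to 67.6 M counts, and the members took 0.635% to 0.751% of them. Levels are given in CPM, which are counts scaled to library size with TMM factors. Itgb1 itself stood at 266, 225, 193 and 255 CPM in mutant libraries 1 to 4, against 422, 432, 408 and 315 CPM in control libraries 1 to 4, so the highest mutant library was below the lowest control. Mutant 3, control 2 and control 3 are set apart by 62.2 to 67.6 M counts, against at most 41.0 M in the other 5, and are called the deep libraries. They also held the highest sums of β-cell markers, at 49332 CPM in mutant 3 and 120507 and 172938 CPM in controls 2 and 3, against 31719 to 43476 CPM in the other 5 libraries. α-cell markers were high only in controls 2 and 3 (41620 and 92825 CPM), with 15927 CPM in mutant 3 and 10444 to 22498 CPM in the other 5. Acinar markers reached 3215 and 9981 CPM in controls 2 and 3 and at most 692 CPM elsewhere. Log2 fold changes of the members described one by one are therefore also given within the 5 other libraries (mutants 1, 2 and 4 against controls 1 and 4), and for those with the smallest p by the log2 ratio of mutant 3 to the mean of controls 2 and 3. In whole islets, fewer cells of a type and less RNA per cell cannot be told apart. Nothing in the labels says that libraries of a genotype came from separate mice beyond calling them biological replicates, so p-values reflect only how far these libraries scatter.

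Among docking and regulatory genes, Sytl2, Sytl4, Sytl5, Stxbp5l and Rims3 were lower in every Itgb1ΔEndo/ΔEndo library than in any control library. None of them passed adjustment in edgeR's quasi-likelihood test. In Stx1a, Snap25 and Vamp2, the fusion core, the groups overlapped, and none had an unadjusted p below 0.05 in that test. Snap25 and Vamp2 still had log2 fold changes of -0.46 and -0.47, with -0.24 and -0.11 within the 5 other libraries. At an unadjusted p below 0.05 in edgeR's quasi-likelihood test, 13 of 67 tested members (19.4%) were lower in mutant libraries, where 7.19% of all tested genes were. At the same threshold 3 members (4.48%) were higher, where 6.8% of all tested genes were. After Benjamini-Hochberg adjustment over all 15233 genes neither a member nor any other gene had an adjusted p below 0.05 in edgeR's quasi-likelihood test (0% called in either direction), and the smallest adjusted p of a member was 0.301. DESeq2 gave an adjusted p below 0.05 to 3 members, all lower (Sytl2, Syt1 and Sytl5), where 0.834% of all genes were called lower and 1.21% higher. Of these 3, Sytl2 and Syt1 also differed by more than 2-fold, where 0.499% of all genes did so downwards and 0.722% upwards.

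Across the tested members 48 of 67 (71.6%) had a negative log2 fold change, where 49.8% of all genes had a negative and 50.2% a positive one. Their median was -0.19, against 0.00 over all genes. Within the 5 other libraries the median of the members was -0.05. There 13 members were lower (10.7% of all genes were) and 4 were higher (12.6% of all genes were) at an unadjusted p below 0.05 in edgeR's quasi-likelihood test. Of the 13 members lower over all 8 libraries, 9 were also among those lower within the 5, which are part of the same data, and Cplx1, Rims3, Syt1 and Syt6 were not. When 1 library was left out, the lower members became 8 without mutant 1 (3.91% of all genes), and the higher ones became 0 without control 1 (8.72% of all genes). Scaling by total counts alone moved the median of all genes to 0.15, the median of the members to -0.01, and the split to 3 higher (7.58% of all genes) and 7 lower (3.56%). Measured against all genes, the members' median was then -0.16, compared with -0.19 under TMM.

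**Figure D1:**
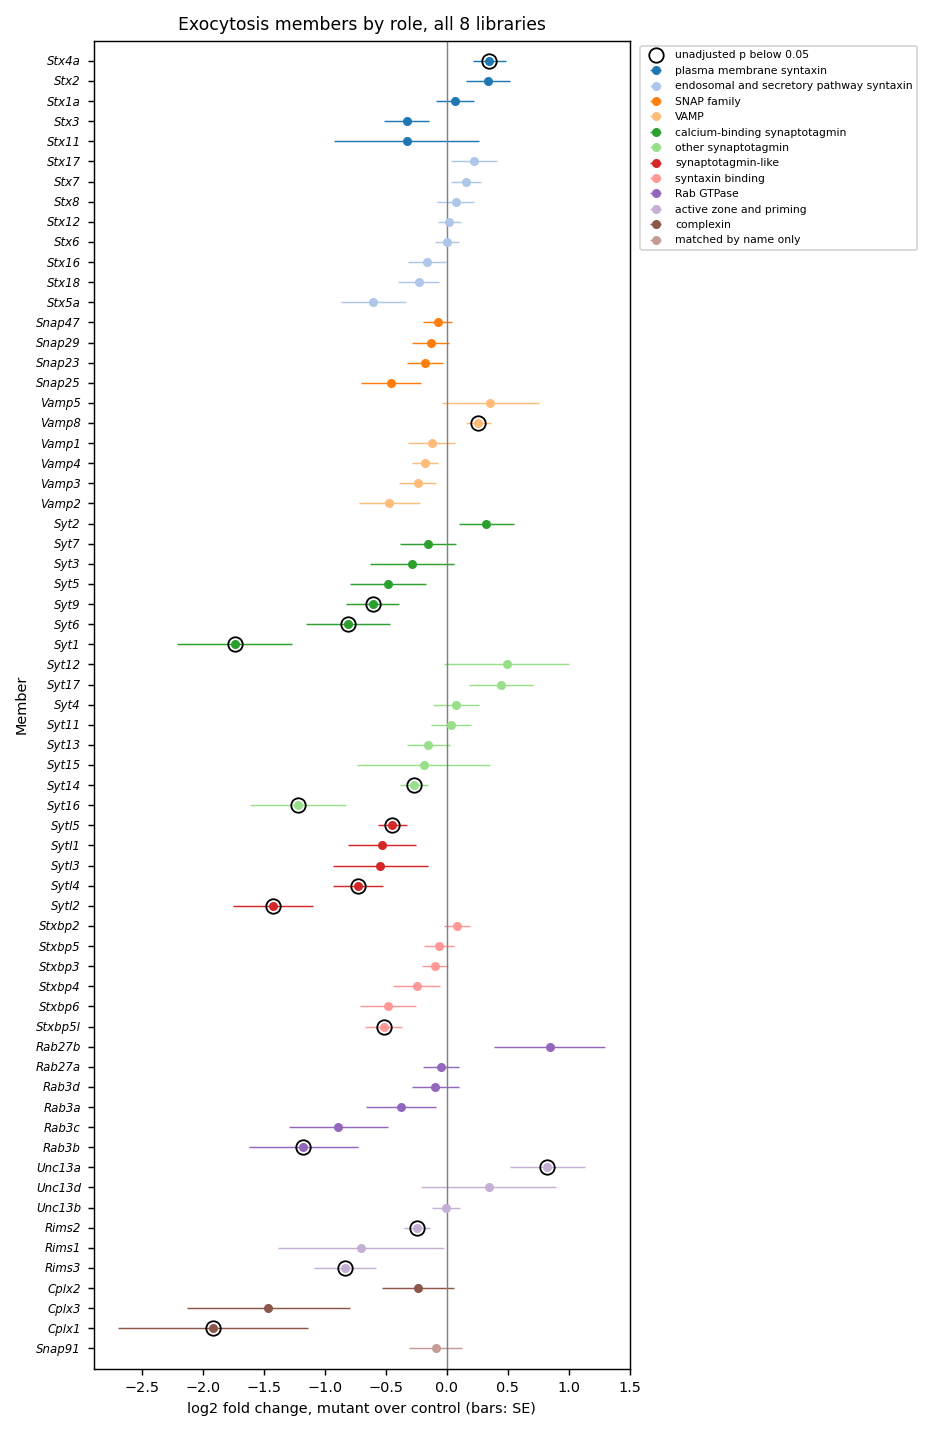
Log2 fold change, mutant over control, of 65 of the 67 tested members over all 8 libraries (x axis), with 1 member a row, coloured by role. Bars are standard errors and open rings mark an unadjusted p below 0.05. All 5 synaptotagmin-like genes lie left of 0, and the 3 ringed members right of 0 are Unc13a, Stx4a and Vamp8.

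The groups did not overlap in 8 members. For 6 of them (8.96%, background 3.8%) every mutant library lay below every control library, and these were Sytl2, Sytl5, Sytl4, Stxbp5l, Rims3 and Syt16. For Stx4a and Vamp8 (2.99%, background 4.4%) every mutant library lay above every control library. Groups that are apart always give p = 0.0286 in an exact two-sided permutation test, the smallest that 4 against 4 allow. That value for these 8 therefore adds nothing to the separation by which they were picked. Within the 5 other libraries, where 3 mutants face 2 controls, the groups were apart in 16 members with mutants lower (21.9% of all genes) and in 4 with mutants higher (21.2% of all genes).

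Of the role groups, the 5 synaptotagmin-like genes had the highest share lower at an unadjusted p below 0.05 in edgeR's quasi-likelihood test. The group is small, and its proteins bind Rab27 at their amino end and phospholipids through C2 domains. All 5 had a negative log2 fold change, where 49.8% of all genes had one, and their median was -0.54. Of the 5, 3 had an unadjusted p below 0.05 in edgeR's quasi-likelihood test, where 7.19% of all genes were lower. Those 3 were also the members of the family whose groups did not overlap, where 3.8% of all genes had every mutant lower. Their direction held with RLE factors and with total counts only.

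Sytl4 encodes granuphilin, a Rab27a effector that docks insulin granules by binding syntaxin-1A and slows their fusion. The gene lies on the minus strand of chromosome X between 133936385 and 133981812 of GRCm38. Its level was 188, 255, 309.9 and 208 CPM in mutant libraries 1 to 4, against 321, 482, 465 and 325 CPM in control libraries 1 to 4. The highest mutant library was mutant 3, which is deep, and it stayed just below the lowest control. Over all 8 libraries Sytl4 had a log2 fold change of -0.73 (SE 0.21) and an unadjusted p of 0.00653 in edgeR's quasi-likelihood test. The value was -0.58 within the 5 other libraries and -0.61 between mutant 3 and controls 2 and 3, so both sets of libraries gave a like difference. With a term for the deep libraries in the fit, edgeR's quasi-likelihood test gave -0.59 and an unadjusted p of 0.000645. No member had an adjusted p below 0.05 in that fit. Per length, Sytl4 was the most abundant of the family at 47.8 RPKM in mutant libraries and 79.3 RPKM in control libraries, and ranked 12 and 7 among all members.

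Sytl5, another Rab27-binding member of the family, lies on the plus strand of chromosome X between 9885621 and 9998864. It stood at 120.2, 124, 112 and 106 CPM in mutant libraries 1 to 4, against 159.9, 139, 186 and 145 CPM in control libraries 1 to 4. The mutant libraries lay close together and all below the lowest control. For Sytl5 the log2 fold change was -0.44 (SE 0.12, unadjusted p = 0.00436 in edgeR's quasi-likelihood test, adjusted p = 0.0406 in DESeq2), with -0.39 within the 5 other libraries and -0.54 between mutant 3 and controls 2 and 3.

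Sytl2 encodes a Rab27 effector also known as Slp2-a and lies on the plus strand of chromosome 7 between 90302355 and 90410719. Its level was 12.3, 13.0, 6.63 and 8.09 CPM in mutant libraries 1 to 4, against 35.3, 31.6, 26.9 and 13.5 CPM in control libraries 1 to 4. Control 4 was the lowest control and sat just above mutant 2. Its log2 fold change of -1.43 (SE 0.33) came with the smallest p among the members, 0.00207 unadjusted and 0.301 adjusted in edgeR's quasi-likelihood test. DESeq2 gave an adjusted p of 0.00474. The difference was -1.13 within the 5 other libraries and -2.14 between mutant 3 and controls 2 and 3.

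Sytl1 and Sytl3 did not reach an unadjusted p below 0.05. Sytl1 had 23.4, 24.2, 28.5 and 21.4 CPM in mutant libraries 1 to 4, against 21.7, 45.3, 50.1 and 23.6 CPM in control libraries 1 to 4. Only the deep controls stood high, and within the 5 other libraries its log2 fold change was 0.02. Sytl3 was near the lower end of detection, with means of 0.773 and 1.13 CPM in mutant and control libraries.

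**Figure D2:**
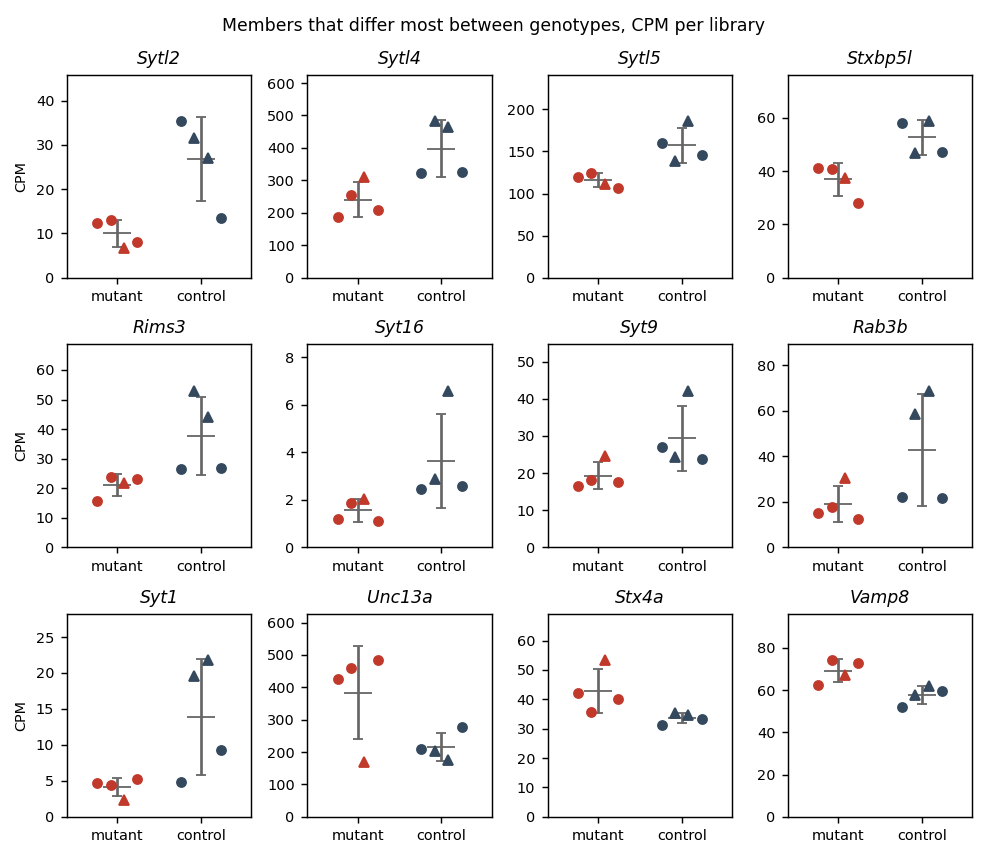
CPM per library (y axis, from 0, one scale a panel) of 12 members in mutant libraries (red, left) and control libraries (dark, right). Circles are the 5 other libraries and triangles the 3 deep ones, and the lines are the mean with 1 SD. The groups are apart in Sytl2, Sytl4, Sytl5, Stxbp5l, Rims3, Syt16, Stx4a and Vamp8, and in Unc13a the deep mutant library lies below the lowest control.

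Their partners among the Rab GTPases, the switches that carry granules to the membrane, were less uniform. Rab27a, which the synaptotagmin-like proteins bind, had 291, 347, 373 and 297 CPM in mutant libraries 1 to 4, against 274, 359, 401 and 319 CPM in control libraries 1 to 4. The groups overlapped throughout, and the log2 fold change of -0.05 (SE 0.15) took either sign across fits, with 0.07 within the 5 other libraries. Rab3a, a Rab3 of neurons and endocrine cells, had 47.1, 66.8, 97.3 and 58.1 CPM in mutant libraries 1 to 4, against 60.2, 116, 111 and 63.2 CPM in control libraries 1 to 4 (log2 fold change -0.38, SE 0.29, and -0.11 within the 5 other libraries), and here the deep libraries were the highest of each genotype.

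Rab3b was lower and followed the deep libraries too. Its level was 15.1, 17.6, 30.5 and 12.6 CPM in mutant libraries 1 to 4, against 22.1, 58.8, 68.8 and 21.5 CPM in control libraries 1 to 4. The groups overlapped through mutant 3, which was above controls 1 and 4. Over all 8 libraries the log2 fold change was -1.18 (SE 0.45, unadjusted p = 0.0277 in edgeR's quasi-likelihood test), smaller within the 5 other libraries (-0.54) and -1.07 between mutant 3 and controls 2 and 3. Rab3b shares 317 of its 3524 annotated exon bases with an antisense gene, and the sources do not say that counting used strand. Of the other Rab members, Rab3d and Rab3c had an unadjusted p above 0.05, as did Rab27b, the highest log2 fold change of all members at 0.85 (SE 0.45). Rab27b had 10.9, 2.72, 3.09 and 7.04 CPM in mutant libraries 1 to 4, against 3.63, 3.17, 4.16 and 2.17 CPM in control libraries 1 to 4, so that only mutants 1 and 4 stood above the controls, and within the 5 other libraries the value was 1.25.

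Among the synaptotagmins that bind calcium, 3 of 7 tested were lower at an unadjusted p below 0.05 in edgeR's quasi-likelihood test. At that threshold 7.19% of all tested genes were lower. Of these 3, Syt1 and Syt6 did not reach it within the 5 other libraries. Syt7, a high-affinity calcium sensor of α- and β-cells, was not among the 3. It had 389.8, 394, 621 and 357 CPM in mutant libraries 1 to 4, against 397, 536, 636 and 386 CPM in control libraries 1 to 4. The 3 deep libraries were the 3 highest, whatever their genotype, and the log2 fold change was -0.15 (SE 0.23), with -0.05 within the 5 other libraries.

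Syt9, a calcium sensor found on insulin granules in rodent β-cell lines, had 16.6, 18.2, 24.6 and 17.6 CPM in mutant libraries 1 to 4, against 27.0, 24.5, 42.1 and 23.7 CPM in control libraries 1 to 4. The groups overlapped only through mutant 3, which lay just above controls 2 and 4. Syt9 had a log2 fold change of -0.61 (SE 0.22, unadjusted p = 0.0222 in edgeR's quasi-likelihood test). It was -0.54 within the 5 other libraries, where the unadjusted p of edgeR's quasi-likelihood test was 0.00148, and -0.44 between mutant 3 and controls 2 and 3. Within the 5, 10.7% of all genes were lower at an unadjusted p below 0.05, and no member had an adjusted p below 0.05.

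Syt1, the fast calcium sensor of neurons, had 4.66, 4.45, 2.36 and 5.19 CPM in mutant libraries 1 to 4, against 4.85, 19.5, 21.7 and 9.32 CPM in control libraries 1 to 4. The difference was larger between deep libraries, as the log2 fold change of -1.74 (SE 0.47, unadjusted p = 0.00529 in edgeR's quasi-likelihood test, adjusted p = 0.0191 in DESeq2) became -0.58 within the 5 others and -3.13 between mutant 3 and controls 2 and 3. Syt6, picked here after its values were seen, also had a lower level over all 8 libraries (log2 fold change -0.81, SE 0.34), with -0.30 within the 5 others.

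The synaptotagmins that lack calcium binding or are set apart from the classical sensors held the most abundant members. Per length, Syt13 stood first in both genotypes, at 269.6 ± 41.1 RPKM in mutant libraries and 299 ± 47.4 RPKM in control libraries (SD, n = 4 each). In CPM it had 911, 998, 1231 and 899 in mutant libraries 1 to 4, against 951, 1206, 1328 and 997 in control libraries 1 to 4, and the groups overlapped (log2 fold change -0.15, SE 0.17, and -0.06 within the 5 other libraries). Syt4, a granule protein of endocrine cells, came second in mutant libraries at 112 ± 21.2 RPKM and ranked 4 in control libraries at 106 ± 20.5 RPKM (SD, n = 4 each).

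Syt16, which does not bind calcium, had 1.20, 1.88, 2.02 and 1.09 CPM in mutant libraries 1 to 4, against 2.44, 2.88, 6.57 and 2.57 CPM in control libraries 1 to 4. The groups did not overlap, although control 3 alone made up much of the control mean. Its log2 fold change was -1.22 (SE 0.39, unadjusted p = 0.0134 in edgeR's quasi-likelihood test), and it was -0.86 within the 5 other libraries and -1.22 between mutant 3 and controls 2 and 3. Without control 3 alone it was -0.75. Syt14, picked here after its values were seen, had a log2 fold change of -0.27 (SE 0.11) over all 8 libraries and -0.33 within the 5 others. Syt12 had the third highest log2 fold change of all members, 0.49 (SE 0.51), with 6.35, 4.26, 1.74 and 4.79 CPM in mutant libraries 1 to 4, against 4.33, 1.97, 1.18 and 4.74 CPM in control libraries 1 to 4. The deep libraries were the 3 lowest, within the 5 others the value was 0.17, and 17.2% of its exon bases overlap an antisense gene.

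Priming factors differed in direction. Unc13a encodes Munc13-1, which opens syntaxin and primes granules, and lies on the minus strand of chromosome 8 between 71626712 and 71671757. Its level was 424, 459, 169 and 483 CPM in mutant libraries 1 to 4, against 208, 203, 177 and 277 CPM in control libraries 1 to 4. Mutants 1, 2 and 4 were all above the highest control and mutant 3, the deep one, was below the lowest. Unc13a had a log2 fold change of 0.83 (SE 0.31, unadjusted p = 0.0252 in edgeR's quasi-likelihood test). Within the 5 other libraries it was 0.90, with an unadjusted p of 0.000599 and an adjusted p of 0.0723 in edgeR's quasi-likelihood test, and between mutant 3 and controls 2 and 3 it was -0.17. In RPKM, Unc13a ranked 13 among the members in mutant libraries and 19 in control libraries. Its exons share 3.92% of their bases with the antisense gene Colgalt1. Its paralog Unc13b had means of 97.0 and 97.4 CPM in mutant and control libraries.

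Long RIM proteins tether granules to calcium channels. Rims3, a short RIM, had 15.6, 23.9, 21.6 and 23.2 CPM in mutant libraries 1 to 4, against 26.3, 52.9, 44.2 and 26.8 CPM in control libraries 1 to 4. The groups did not overlap, but controls 1 and 4 lay close above the mutants. The log2 fold change of -0.83 (SE 0.26, unadjusted p = 0.0104 in edgeR's quasi-likelihood test) was -0.35 within the 5 other libraries and -1.17 between mutant 3 and controls 2 and 3. Rims2, the RIM2 of β-cells, had 92.9, 100.5, 81.8 and 87.8 CPM in mutant libraries 1 to 4, against 113, 93.4, 113 and 109.8 CPM in control libraries 1 to 4. Apart from control 2 the groups were separate, and the log2 fold change of -0.24 (SE 0.11) sat at the threshold (unadjusted p = 0.0497 in edgeR's quasi-likelihood test) and was -0.25 within the 5 other libraries and -0.10 under scaling by total counts.

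Of the 7 syntaxin-binding members, 1 was lower at an unadjusted p below 0.05 in edgeR's quasi-likelihood test, where 7.19% of all genes were. Stxbp5l encodes tomosyn-2, which binds SNARE proteins and holds back insulin release in mice, and lies on the minus strand of chromosome 16 between 37107310 and 37384958. It had 41.0, 40.8, 37.6 and 28.0 CPM in mutant libraries 1 to 4, against 58.0, 46.9, 58.7 and 47.2 CPM in control libraries 1 to 4. The groups did not overlap, and neither the deep libraries nor the others stood apart. The log2 fold change was -0.52 (SE 0.15, unadjusted p = 0.00833 in edgeR's quasi-likelihood test), with -0.53 within the 5 other libraries and -0.49 between mutant 3 and controls 2 and 3. Its paralog Stxbp5 (tomosyn-1) averaged 138 and 144 CPM in mutant and control libraries.

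None of the SNARE genes that form the classical fusion complex reached an unadjusted p below 0.05. Stx1a, the plasma membrane syntaxin of regulated release, had 17.8, 17.3, 18.7 and 14.3 CPM in mutant libraries 1 to 4, against 17.4, 13.3, 15.5 and 19.0 CPM in control libraries 1 to 4. The groups overlapped fully, with a log2 fold change of 0.07 (SE 0.16) over all 8 libraries and -0.15 within the 5 others. Snap25, its plasma membrane partner, had 85.6, 109, 153 and 96.6 CPM in mutant libraries 1 to 4, against 111, 207, 174 and 117 CPM in control libraries 1 to 4. The deep libraries were highest in each genotype, and the log2 fold change was -0.46 (SE 0.25) over all 8 libraries and -0.24 within the 5 others. All 4 SNAP-family genes had a negative value, but Snap29 and Snap47 turned positive under scaling by total counts.

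Vamp2, the granule SNARE, had 124, 141, 185 and 129.6 CPM in mutant libraries 1 to 4, against 136, 237, 283 and 147 CPM in control libraries 1 to 4. Its log2 fold change of -0.47 (SE 0.25) was -0.11 within the 5 other libraries, where the groups lay close together. Vamp3 (cellubrevin), which can stand in for it, had 75.5, 76.0, 84.5 and 72.9 CPM in mutant libraries 1 to 4, against 75.7, 101, 113 and 74.4 CPM in control libraries 1 to 4, and only the deep controls were high (log2 fold change -0.24, SE 0.15, and -0.01 within the 5 other libraries). Of the 8 syntaxins of endosomes and the secretory pathway none had an unadjusted p below 0.05, with log2 fold changes between -0.60 (Stx5a, of the Golgi) and 0.22 (Stx17, of autophagosomes).

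The SNARE genes that were higher in mutant libraries at an unadjusted p below 0.05 in edgeR's quasi-likelihood test were Stx4a and Vamp8. Both are named here after their values were seen. Stx4a encodes syntaxin-4, a plasma membrane syntaxin used in insulin release. It had 42.2, 35.5, 53.2 and 40.1 CPM in mutant libraries 1 to 4, against 31.1, 35.2, 34.6 and 33.4 CPM in control libraries 1 to 4. Mutant 2 was barely above control 2, so the separation of the groups was narrow. The log2 fold change was 0.35 (SE 0.14, unadjusted p = 0.0317 in edgeR's quasi-likelihood test), with 0.28 within the 5 other libraries and 0.61 between mutant 3 and controls 2 and 3. Of its exon bases, 5.25% overlap a gene on the other strand.

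Vamp8 encodes a SNARE of late endosomes and of secretory granules in exocrine and blood cells. It had 62.4, 74.1, 67.1 and 73.0 CPM in mutant libraries 1 to 4, against 52.0, 57.5, 62.1 and 59.6 CPM in control libraries 1 to 4. The lowest mutant and the highest control almost met. The log2 fold change was 0.26 (SE 0.10, unadjusted p = 0.032 in edgeR's quasi-likelihood test), with 0.32 within the 5 other libraries and 0.17 between mutant 3 and controls 2 and 3. In RPKM it ranked 6 among the members in mutant libraries and 8 in control libraries.

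**Figure D3:**
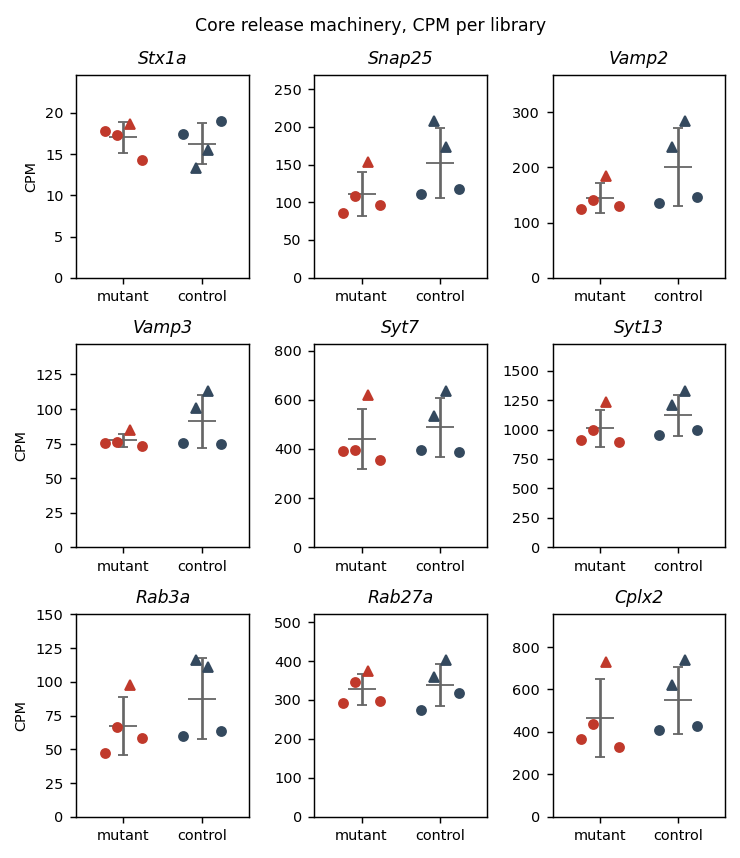
CPM per library (y axis, from 0, one scale a panel) of 9 genes of the core release machinery, with mutant libraries in red on the left and control libraries dark on the right. Circles are the 5 other libraries, triangles the 3 deep ones, and lines the mean with 1 SD. Groups overlap in every panel, and in all but Stx1a the 3 deep libraries are the highest of the 8.

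Complexins bind the assembled SNARE complex. Cplx2, the most abundant of them per length (94.6 RPKM in mutant and 111 RPKM in control libraries), had 365, 435, 731 and 331 CPM in mutant libraries 1 to 4, against 409, 620.5, 737 and 427 CPM in control libraries 1 to 4. The deep libraries of both genotypes were the highest 3, and the log2 fold change was -0.24 (SE 0.29), with -0.15 within the 5 others. The lowest log2 fold changes of all members belonged to complexins of very low counts and to Syt1. Cplx1 (-1.92, SE 0.78, unadjusted p = 0.0368 in edgeR's quasi-likelihood test) had 0.362, 0.529, 0.458 and 1.76 CPM in mutant libraries 1 to 4, against 0.493, 6.74, 2.11 and 2.15 CPM in control libraries 1 to 4, and was -0.62 within the 5 other libraries. Cplx3 (-1.46, SE 0.67) had 0.0904, 0.144, 0.458 and 0.0474 CPM in mutant libraries 1 to 4, against 0.363, 0.649, 0.969 and 0.238 CPM in control libraries 1 to 4, and was -1.64 within the 5 other libraries.

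Depth went with the TMM-scaled CPM of many members, in mutant 3 as in controls 2 and 3. TMM factors were 0.867 and 0.779 in controls 2 and 3, against 1.05 to 1.10 in the other libraries. A low factor raises the CPM of its library. The members took 0.662% and 0.637% of counts in controls 2 and 3 and 0.751% in mutant 3, against 0.635% to 0.697% in the others. Whether these levels also go with depth under total counts alone was not tested. In 20 of 67 tested members (29.9%, background 13.8%) the 3 deep libraries all lay above the other 5, among them Snap25, Vamp2, Vamp3, Syt7, Syt13, Rab3a, Rab27a and Cplx2. In 6 members (8.96%, background 12.4%) they all lay below, among them Unc13a, Syt11, Syt12 and Stxbp5. Markers of the endocrine granule (8 genes such as Chga and Pcsk2) summed to 14404, 17477, 21372 and 16071 CPM in mutant libraries 1 to 4, against 16166, 40945, 49847 and 18005 CPM in control libraries 1 to 4. Here too the deep libraries were the highest 3, and the part of endocrine cell content in the members' differences was not tested.

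**Figure D4:**
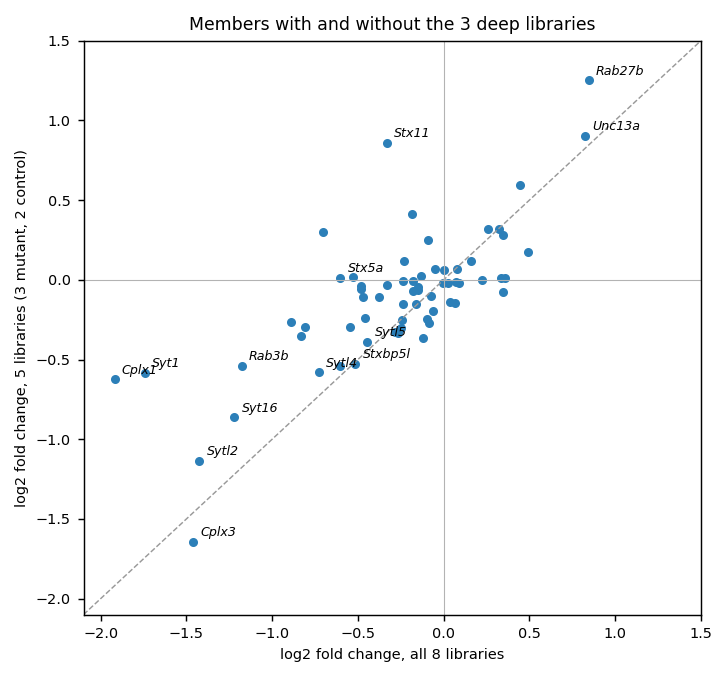
Log2 fold change, mutant over control, of 65 tested members over all 8 libraries (x axis) and within the 5 other libraries (y axis). Points on the dashed line have equal values. Sytl5, Stxbp5l, Sytl4 and Unc13a lie near it, while Syt1 (-1.74 and -0.58) and Cplx1 (-1.92 and -0.62) lie far above it.

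Marker sums of the cell types an islet preparation can hold were set beside these results, with every marker counted in at least 1 library. α-cell markers had a log2 ratio, mutant over control, of -1.60 (exact permutation test, p = 0.0571), with -0.56 within the 5 other libraries. β-cell markers had -1.10 over all 8 libraries (exact permutation test, p = 0.371) and 0.25 within the 5, and acinar markers -3.76 (exact permutation test, p = 0.257) and 0.90. Markers of δ- and PP-cells had -0.70 over all 8 libraries (exact permutation test, p = 0.143) and -0.86 within the 5. Fibroblast and pericyte markers were higher in every mutant library, at 645 to 861 CPM against 318 to 472 CPM in control libraries (exact permutation test, p = 0.0286), and ductal markers had a log2 ratio of 1.11 (exact permutation test, p = 0.0857). The part of these shifts in the members' differences was not tested.

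Beyond the members, 65 further genes of granule docking, priming, transport and SNARE recycling were listed, and all 65 passed the low count filter. Over all 8 libraries 8 were lower and 1 was higher at an unadjusted p below 0.05 in edgeR's quasi-likelihood test, where 7.19% of all genes were lower and 6.8% higher, and none had an adjusted p below 0.05 (smallest 0.318). Their median log2 fold change was -0.11, against 0.00 over all genes. By group, 4 of 10 active zone scaffold genes and 3 of 8 genes of priming and calcium sensing were lower, to be read against the same 7.19%. None of the 10 exocyst subunits, which tether vesicles at the plasma membrane, differed at that threshold.

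Of the scaffold genes, Erc2 had 15.4, 15.8, 14.4 and 14.5 CPM in mutant libraries 1 to 4, against 18.5, 25.0, 28.9 and 21.1 CPM in control libraries 1 to 4, without overlap (log2 fold change -0.64, SE 0.16, adjusted p = 0.0196 in DESeq2, and -0.39 within the 5 other libraries). Pclo, the giant scaffold piccolo, was at 365 to 378 CPM in mutant libraries and 441 to 576 CPM in control libraries (-0.38, SE 0.12, and -0.27 within the 5 others). Cadps, which encodes the dense-core granule priming factor CAPS1, was at 66.9 to 119.9 CPM in mutant libraries and 119 to 229 CPM in control libraries (-0.84, SE 0.26, and -0.58 within the 5 others). Baiap3, a relative of Munc13, was at 24.1 to 56.5 CPM in mutant libraries and 43.6 to 253 CPM in control libraries (-1.77, SE 0.55, adjusted p = 0.0385 in DESeq2). The high Baiap3 controls were the deep ones, at 159.8 and 253 CPM, and within the 5 others the log2 fold change was -0.67. Doc2b, a calcium sensor for insulin release, was at 6.07 to 9.74 CPM in mutant libraries and 10.6 to 17.4 CPM in control libraries (-0.71, SE 0.23, and -0.65 within the 5 others). Rph3al, the Rab effector Noc2, was the gene that was higher, at 198 to 257 CPM in mutant libraries and 142 to 202 CPM in control libraries (0.41, SE 0.14, and 0.43 within the 5 others).

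The 7 members that did not pass the filter were Cplx4, Rims4, Stx19, Stxbp3-ps, Syt10, Syt8 and Unc13c. Their counts over all 8 libraries together were between 3 (Syt10) and 53 (Rims4), too few to compare genotypes.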

How the data were processed

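RNA of isolated islets was sequenced as 50 bp single reads after ribosomal RNA depletion. The authors trimmed reads with Trimmomatic and FASTP, used STAR for alignment to mm10 and featureCounts, at default parameters, for the raw counts they deposited. Build GRCm38 and edgeR appear in the submitters' processing notes. A deposited table of the authors' own comparison (CPM under their own library numbers in 8 columns, group means, log2 fold changes, F, p-values and FDR) was not used here.

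Counts of all 24091 genes were filtered with filterByExpr (15233 kept) and fitted in R 4.3.3 with edgeR 4.0.16 (quasi-likelihood test), with TMM factors and genotype as the only term. The authors' batch term is not named in the labels and was left out. The SE is the log2 fold change over the square root of F. RPKM uses the deposited gene lengths. Of the symbols, 26 had been turned into dates and were left so. Library totals ranged over 35.1 to 67.6 M, and no library was present more than once (chi-square per gene between any pair at least 27.9). The test was checked on simulated counts. Members, roles and lists were chosen with earlier results of these data known. Genes named with every library are 14 core release genes, the 10 members with the smallest p and the 3 highest and 3 lowest log2 fold changes, and of the further list the 6 with the smallest p. Single-gene results of some members are not reported here. Alternatives were the likelihood ratio test of edgeR, DESeq2 1.42.0, other filters and scalings, a replicate block, a term for or removal of the deep libraries, and leaving out each library. A term for sex, since control 3 and mutant 3 are female by Xist and Y-linked genes, and the older form of the test were added after seeing the data.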

Additional observations from a re-analysis of the deposited data

Results flagged for a closer look

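Among 25 members, 50 groups of 4 libraries were examined for a library set apart from the rest of its genotype, and 4 were found, where chance alone marks about 1 group in 20. Syt7 stood at 621 CPM in mutant 3, against 357 to 394 CPM in the other mutant libraries. Cplx1 stood at 1.76 CPM in mutant 4, above the other mutant libraries at 0.362 to 0.529 CPM. Rims2 stood at 93.4 CPM in control 2, below the other control libraries at 109.8 to 113 CPM. Syt16 stood at 6.57 CPM in control 3, above the other control libraries at 2.44 to 2.88 CPM.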

How the results depend on the processing

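No gene had an adjusted p below 0.05 with all 8 libraries in edgeR's quasi-likelihood test. Past an adjusted p of 0.05 and a fold of 2, DESeq2 called 2 members lower (0.499% of all genes) and edgeR's likelihood ratio test 1 (0.19%), which was Sytl2 (adjusted p = 0.0204). At an unadjusted p below 0.05 the 13 lower members became 7 with total counts only and 8 to 19 when 1 library was left out (8 without mutant 1), and the 3 higher members became 1 with the likelihood ratio test and 0 to 3 when 1 library was left out (0 without control 1, and 1 without mutant 1, mutant 4 or control 2). The median of the members was -0.0099 with total counts only, -0.12 with a term for the deep libraries, -0.051 without them and -0.25 to -0.12 when 1 library was left out. The 6 lower members without overlap became 16 without the deep libraries (21.9% of all genes) and 6 to 12 when 1 library was left out (12 without control 1, and 11 without mutant 3). The 2 higher ones became 1 without the low count filter, 1 with RLE factors, 4 without the deep libraries (21.2%) and 1 to 2 when 1 library was left out (1 without mutant 2).

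Some directions turned. With total counts only Syt7 was 0.043, Syt13 0.028, Rab27a 0.13 and the endothelial marker ratio 0.13. With a term for the deep libraries Syt7 was 0.0027 and Rab27a 0.036, and without those libraries Stx1a was -0.15 and Rab27a 0.065. When 1 library was left out, Stx1a ranged between -0.022 and 0.15, Syt7 between -0.36 and 0.0014, and Rab27a between -0.14 and 0.042. Of 35 genes and marker ratios followed through the alternatives, no other gene changed direction. Marker ratios also turned without the deep libraries. There the β-cell ratio went from -1.10 to 0.25 and the acinar ratio from -3.76 to 0.90. The endothelial ratio went from -0.02 to 0.04, and the neural and Schwann ratio from 0.27 to -0.06. Members outside these 35 also turned, among them Snap29 (0.05) and Snap47 (0.09) with total counts only, and Sytl1, at -0.53 over all 8 libraries, was 0.02 without the deep ones. With the replicate block 15 members were lower (7.76% of all genes), 3 were higher (10.5%) and the median was -0.17, and no call changed at the adjusted threshold. Residuals of libraries with the same number correlated at 0.42, -0.01, 0.47 and 0.27, and the labels do not say that a number pairs libraries. A term for sex gave 16 lower (9.44% of all genes) and 3 higher (9.79%), and the older form of the test 12 (6.89%) and 3 (6.4%). Leaving out mutant 3, control 2 and control 3 leaves 3 against 2 libraries, which limits the precision of those values.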
